A study of Mus musculus with 8 samples.

Results

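The cartilage genes Sox9, Sox5, Sox6, Acan, Comp, Matn3, Chad and Hapln1 were followed in mouse calvarial cultures, which are grown from the flat bones of the skull and used as a source of bone-forming osteoblastic cells. They are 8 of the 24421 genes counted, taken by their symbols, and all 8 had a row in each library. Osteoblastic cells had been released enzymatically from the calvaria of newborn C57BL/6 mice, either WT or Def6-/-, a line crossed back to C57BL/6 that lacks Def6 in every cell, with WT littermates as controls. Per the study's methods, the released cells were expanded in culture for several days before plating, so day 0 cells were not freshly released. Cells of both genotypes were harvested at day 0 or at day 12 of osteogenic medium, which holds ascorbic acid and β-glycerophosphate. Poly-A RNA of each of the 4 groups was sequenced in 2 libraries, which the study describes as biological replicates.

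Cartilage forms from chondrocytes, whose identity depends on the transcription factor SOX9 and on its partners SOX5 and SOX6, which act with it on the genes of the cartilage matrix. The matrix holds water because aggrecan (Acan), a proteoglycan with many chondroitin sulfate chains, binds to hyaluronan, and link protein (Hapln1) locks that bond. Cartilage oligomeric matrix protein (Comp), matrilin 3 (Matn3) and chondroadherin (Chad) connect collagen fibres with other matrix molecules. The skull vault is formed by osteoblasts directly, without a cartilage model, although the cranial base and the sutures can hold cartilage, and Comp is also made by tendon and ligament cells.

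The promoters of Acan and Hapln1 are shown because these genes encode partners on the same hyaluronan chain and Acan, but not Hapln1, was called over time in Def6-/- cells, a difference between genes that was not tested. Each sequence is from RefSeq (GRCm38.p6, the build of mm10) and runs from 250 bases before to 50 bases after the start of transcription, on the + strand for both genes. The Acan promoter is at chr7:79052976-79053275 and the Hapln1 promoter at chr13:89540386-89540685. These RefSeq starts differ from the GENCODE gene positions given below. By GENCODE the Acan stretch lies wholly before the gene, which starts at 79053483. The Hapln1 stretch lies inside the gene, which starts at 89539796. Capitals mark the letters GGGCGG (a GC box) on either strand, and overlapping matches were counted.
Acan: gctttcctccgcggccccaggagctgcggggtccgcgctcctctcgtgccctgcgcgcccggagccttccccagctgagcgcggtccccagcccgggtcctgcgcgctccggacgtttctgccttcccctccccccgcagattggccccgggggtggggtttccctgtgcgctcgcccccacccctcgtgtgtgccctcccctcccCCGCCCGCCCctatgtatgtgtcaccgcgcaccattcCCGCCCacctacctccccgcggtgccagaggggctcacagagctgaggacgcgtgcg
Hapln1: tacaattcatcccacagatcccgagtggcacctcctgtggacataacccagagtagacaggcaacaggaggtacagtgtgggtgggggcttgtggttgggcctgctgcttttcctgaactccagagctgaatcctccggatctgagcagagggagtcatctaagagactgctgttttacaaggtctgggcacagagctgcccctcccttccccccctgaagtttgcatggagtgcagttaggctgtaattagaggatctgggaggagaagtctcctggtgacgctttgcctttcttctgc
The Acan promoter held 3 GC boxes, 2 of them overlapping, with 74% G or C, and the Hapln1 promoter held 0 with 54.3%. Among 32851 promoters of the same length 35.7% held a GC box, and the median was 52.7% G or C. Promoters were found for 6 of the 8 genes (all but Sox9 and Comp). Of their 11 promoters, 6, all of Sox5 or Sox6, held ACAATG or ACAAAG on either strand, letters that SOX proteins can bind, as did 28.6% of all promoters. A match describes the letters of the sequence and is not a bound site.

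Between 2414856 and 3482837 reads of each library lay on genes, 28.8% to 35.3% of all reads. Def6 had 112 to 186 reads in each WT library and 0 to 2 in each Def6-/- library. WT day 0 replicate 1 stood apart, with 34.9% of its reads at more than 1 place of the genome against 21.4% to 26.6% in the other 7 libraries. Rn45s, a ribosomal RNA precursor, was at 11921 deposited CPM in WT day 12 replicate 2, which had 29.7% of reads on genes, and at 5691 in Def6-/- day 12 replicate 2, against 1214 to 1855 in the other 6; its part in the results was not tested. The WT day 0 libraries also differed more from each other than those of other groups: the median absolute difference between replicates was 0.51 on the log2 scale in the WT day 0 group and 0.19 to 0.22 in the other groups. Of the osteoblast markers Col1a1, Col1a2, Runx2, Sp7, Alpl, Ibsp, Bglap, Spp1 and Sparc, Bglap had 0 reads in all 4 day 0 libraries and the others had reads in each library, with a summed level of the 9 markers of 36472 to 51977 normalized CPM at day 0 and of 95077 to 133302 at day 12. Here normalized CPM are the deposited CPM put on the reads that lay on genes and scaled between libraries with TMM factors (trimmed mean of M values). Fold changes were tested with limma on log2(normalized CPM + 1), on which fold changes of low genes come out too small. A gene was tested where any group averaged 1 deposited CPM or more, which left 12348 genes. Among them were 6 of the 8 cartilage genes, and Matn3 and Chad were below this level. The 6 reached it in each of the 4 groups, whereas a gene low elsewhere could enter the test only through the group where it was high. In bulk RNA, fewer cells of a type and less RNA per cell cannot be told apart.

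Over 12 days of osteogenic medium, Comp rose in both genotypes and Acan fell in Def6-/- cells, whereas the 3 Sox genes and Hapln1 had no change past the test. Acan was lower at day 12 in WT cells too (log2 fold change -1.21), just short of the threshold (limma, adjusted p = 0.0553). The Acan changes of the 2 genotypes were not shown to differ. In WT cells 1 of the 6 tested genes had a Benjamini-Hochberg adjusted p under 0.05, where 18.3% of all genes tested did. In Def6-/- cells 2 of the 6 did, where 16.8% of all genes did. The median log2 fold change of the 6 genes was 0.16 in WT and 0.05 in Def6-/- cells, beside -0.00 and 0.01 over all genes tested. Between genotypes, none of the 6 genes was called at either day. Leaving out 1 library moved the share of all genes called over time from 7.18% (without WT day 12 replicate 1) to 46.1% (without WT day 0 replicate 2) in WT cells, and from 7.51% (without Def6-/- day 0 replicate 1) to 35.1% (without WT day 0 replicate 2) in Def6-/- cells. In such a fit the group with 1 library has no spread of its own and is assumed to vary like the other groups. The plot of each gene by library shows the values.

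**Figure D1:**
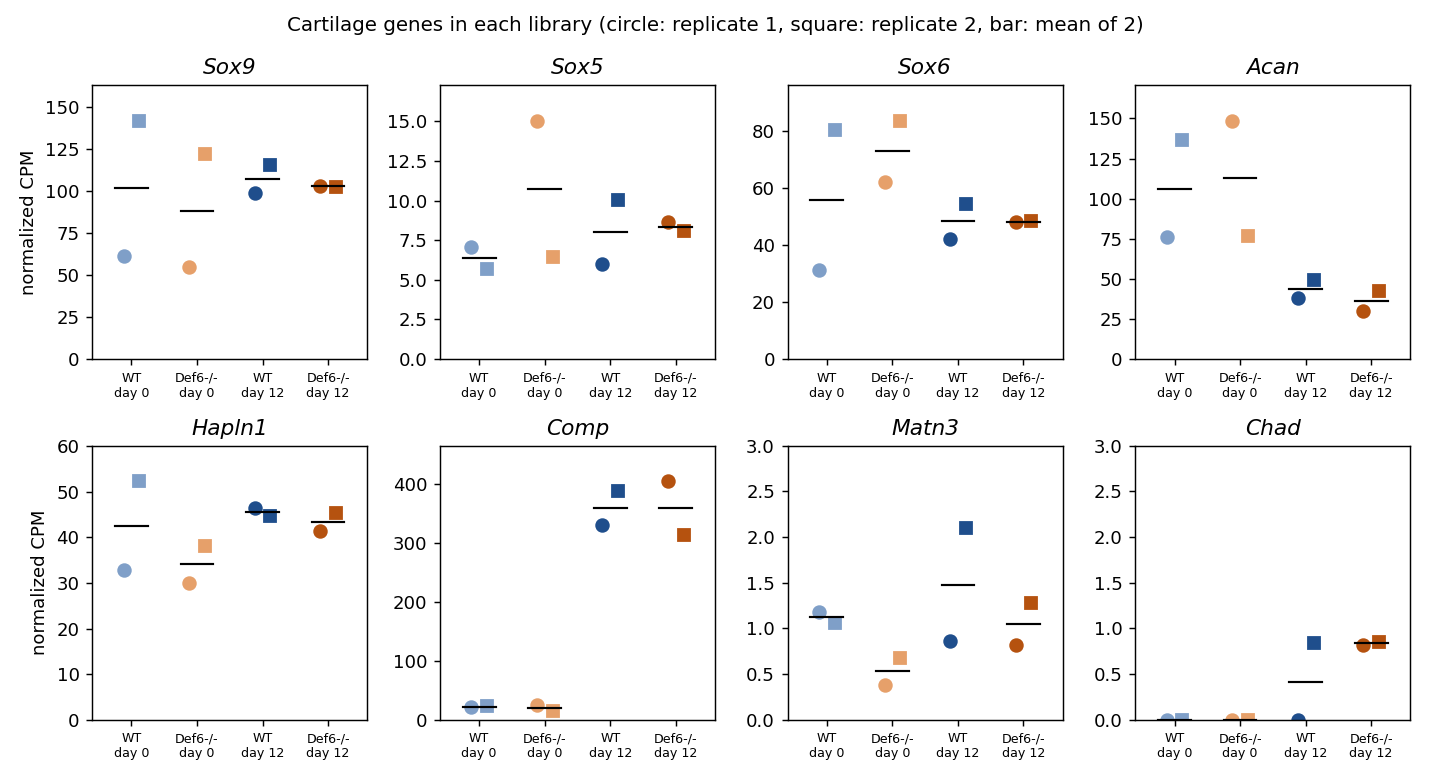
Normalized CPM (y axis, linear, from 0) of the 8 cartilage genes in the 4 groups (x axis); a circle is replicate 1, a square replicate 2, and a bar the mean of 2 libraries. Comp lies between 15.0 and 25.2 at day 0 and between 313 and 404 at day 12, Acan is lower in every day 12 library than in every day 0 library, and Matn3 and Chad stay below 3 normalized CPM.

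Sox9, the factor required for chondrocyte formation, lies on chromosome 11 (mm10, 112782224 to 112787760, + strand). It had 155 and 401 reads in the WT libraries at day 0 and 344 and 275 at day 12, and 145 and 357 reads in the Def6-/- libraries at day 0 and 251 and 240 at day 12. Its level in WT cells was 61.2 and 142 normalized CPM at day 0 and 98.7 and 115 at day 12. In the Def6-/- libraries it was 54.5 and 122 at day 0 and 103 and 102 at day 12. At day 0 replicate 1 was the lower library in both genotypes, and the day 12 libraries lay between the day 0 values. The log2 fold change over time was 0.19 (standard error 0.43, 95% interval -0.78 to 1.17) in WT and 0.33 (-0.65 to 1.31) in Def6-/- cells, and neither passed the test (limma, adjusted p = 0.794 and 0.669). These intervals include changes of more than 1 log2 unit upward in both genotypes.

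Sox6, on chromosome 7 (115470872 to 116038796, - strand), had 79 and 227 reads in WT libraries at day 0 and 147 and 130 at day 12, with 165 and 245 and then 117 and 113 in Def6-/- libraries. In normalized CPM these were 31.2 and 80.2 at day 0 and 42.2 and 54.4 at day 12 in WT cells, where the groups overlapped. In Def6-/- cells the values were 62.1 and 83.4 at day 0 and 48.0 and 48.2 at day 12, so both later libraries were lower. The log2 fold change was -0.06 (standard error 0.39) in WT and -0.57 (-1.45 to 0.31) in Def6-/- cells, and neither passed the test (limma, adjusted p = 0.932 and 0.374). In WT cells the Sox6 value depended on the day 0 libraries: it was -0.73 without replicate 1 (limma, adjusted p = 0.0281) and 0.60 without replicate 2 (limma, adjusted p = 0.0417), a call in each case but in opposite directions, over a range of adjusted p from 0.0281 to 0.971 in 19 alternatives. The Def6-/- value was called when only those 4 libraries were fitted or when either WT day 0 library was left out (limma, adjusted p = 0.0309, 0.0257 and 0.0285, over a range of 0.0257 to 0.749), with the same log2 fold change in each.

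Sox5, on chromosome 6 (143828425 to 144781977, - strand), was the lowest of the 3 Sox genes, with 16 to 40 reads in a library. Its values in WT cells were 7.10 and 5.65 normalized CPM at day 0 and 6.03 and 10.1 at day 12, and in Def6-/- cells 15.0 and 6.47 and then 8.62 and 8.11. The groups overlapped, and the largest value, in Def6-/- day 0 replicate 1, came from 40 reads. The log2 fold change was 0.26 (standard error 0.41) in WT and -0.23 in Def6-/- cells, with no call (limma, adjusted p = 0.697 and 0.774). The exons of Sox5 share 1330 bases with the antisense gene Sox5os1. The strand setting of the counting is not given in the sources used here, so reads of that antisense gene could be counted in Sox5.

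Acan lies on chromosome 7 (79053483 to 79115099, + strand). It had 192 and 387 reads in WT libraries at day 0 and 133 and 118 at day 12, and 395 and 226 reads in Def6-/- libraries at day 0 and 73 and 99 at day 12. Its level in Def6-/- cells was 149 and 77.0 normalized CPM at day 0 and 30.0 and 42.3 at day 12, so that both later libraries were below both earlier ones and the ratio of means was 3.12-fold lower. Acan fell by 1.56 on the log2 scale in these cells (standard error 0.37, 95% interval -2.41 to -0.71, limma, adjusted p = 0.0218). In WT cells the values were 75.8 and 137 at day 0 and 38.2 and 49.4 at day 12, again without overlap and 2.43-fold lower by the ratio of means. The WT log2 fold change of -1.21 (-2.06 to -0.36) did not pass the adjustment (limma, adjusted p = 0.0553). The difference between the changes in the 2 genotypes was -0.35 (standard error 0.53, -1.55 to 0.85), so the 2 changes were not shown to differ.

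The Acan calls lay near the threshold. In Def6-/- cells the call was lost without Def6-/- day 0 replicate 1 (log2 fold change -1.09, limma, adjusted p = 0.182), without day 12 replicate 1 (-1.32, 0.162) or without day 12 replicate 2 (-1.80, 0.0680), over a range of adjusted p from 0.000629 to 0.182 in 19 alternatives. In WT cells a call was gained without day 0 replicate 1, the library that stood apart (-1.63, limma, adjusted p = 0.00354), and the value without replicate 2 was -0.79 (0.0684). It was gained as well with the count tests of edgeR (0.0460) and DESeq2 (0.0106), with CPM of reads on genes without TMM (0.0486) and without either Def6-/- day 0 library (0.0492 and 0.0484), over a range of 0.00354 to 0.282. The Acan value was negative in every one of these alternatives, in both genotypes.

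Hapln1, on chromosome 13 (89539796 to 89611652, + strand), had 80 to 162 reads in a library. It was at 32.8 and 52.3 normalized CPM in WT cells at day 0 and at 46.5 and 44.8 at day 12, where the groups overlapped. The Def6-/- libraries were at 30.1 and 38.1 at day 0 and at 41.5 and 45.3 at day 12, where both later libraries were higher. The log2 fold change was 0.14 (standard error 0.26, -0.44 to 0.72) in WT and 0.35 (-0.24 to 0.93) in Def6-/- cells, and neither passed the test (limma, adjusted p = 0.749 and 0.418). The intervals of Hapln1 and Acan overlapped in WT cells (Acan -2.06 to -0.36) and did not in Def6-/- cells (Acan -2.41 to -0.71). A difference between the 2 genes was not tested.

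Comp, on chromosome 8 (70373558 to 70382066, + strand), had 53 and 68 reads in WT libraries at day 0 and 1152 and 926 at day 12, with 67 and 44 and then 985 and 733 in Def6-/- libraries. Its level in WT cells was 20.9 and 24.0 normalized CPM at day 0 and 331 and 388 at day 12. The Def6-/- libraries were at 25.2 and 15.0 at day 0 and 404 and 313 at day 12. The lowest day 12 library was above the highest day 0 library in both genotypes, and the ratio of means was 16.0 in WT and 17.8 in Def6-/- cells. Comp rose by 3.94 on the log2 scale in WT cells (standard error 0.26, limma, adjusted p = 5.77e-05) and by 4.12 in Def6-/- cells (standard error 0.26, limma, adjusted p = 4.02e-05). It ranked 69 and 65 among the 12348 genes by increase. Comp was called in both genotypes in each of 19 alternatives, with a log2 fold change of 3.81 to 4.05 in WT and 3.77 to 4.48 in Def6-/- cells.

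Matn3, on chromosome 12 (8947929 to 8972028, + strand), had 3 and 3 reads in WT libraries at day 0 and 3 and 5 at day 12, and 1 and 2 and then 2 and 3 reads in Def6-/- libraries. At 1 to 5 reads no fold is given. Chad, on chromosome 11 (94565047 to 94569127, + strand), had 0 reads in all 4 libraries at day 0. At day 12 it had 0 and 2 reads in WT and 2 and 2 in Def6-/- libraries. A count of 0 allows up to 3 reads, which is 1.02 to 1.18 normalized CPM in the day 0 libraries, so no difference in Chad was detectable at this depth. This limit covers counting error only. The gene body of Acsf2, on the other strand, overlaps Chad without sharing exon bases.

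Both day 12 libraries lay beyond both day 0 libraries for 2 of the 6 tested genes in WT cells (Comp higher, Acan lower) and for 4 of the 6 in Def6-/- cells (Comp and Hapln1 higher, Acan and Sox6 lower). Over all genes tested, 29.3% lay wholly higher and 26.6% wholly lower in WT cells, and 35.2% and 32.4% in Def6-/- cells.

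**Figure D2:**
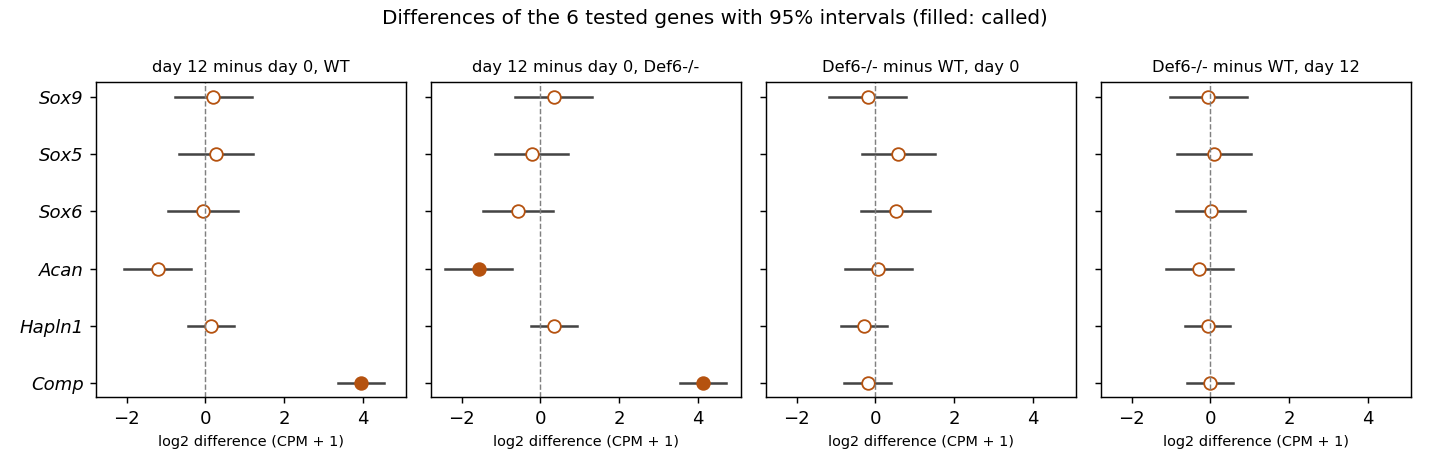
Log2 differences of normalized CPM + 1 (x axis) of the 6 tested genes (y axis) in 4 comparisons, with lines for the 95% intervals of limma and filled points for calls. Comp lies at 3.94 and 4.12 over time, Acan at -1.21 and -1.56, and every interval of the genotype comparisons includes 0.

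Between Def6-/- and WT cells none of the 6 tested genes was called at day 0 under the criterion of the study (unadjusted p under 0.05 and more than 1.2-fold), which called 2.3% of all genes tested. The 2 libraries of each genotype overlapped for all 6 genes, where 10.9% of all genes were wholly higher and 11.7% wholly lower in Def6-/- cells. The log2 differences of Def6-/- from WT cells were 0.58 for Sox5 (-0.35 to 1.51), 0.51 for Sox6 (-0.36 to 1.39) and -0.28 for Hapln1 (-0.86 to 0.30). For Sox9, Comp and Acan they were -0.19, -0.19 and 0.07. Leaving out a library, which leaves 1 library in a group, gave calls: Sox6 was at 1.18 without WT day 0 replicate 2 (limma, adjusted p = 0.00303, over a range of 0.00303 to 1 in the alternatives), whereas Sox9 (-0.79) and Hapln1 (-0.61) without WT day 0 replicate 1, and Sox5 (1.13) without Def6-/- day 0 replicate 2, had an unadjusted limma p of 0.0340, 0.0111 and 0.0271. The same count over all genes was 284 with all libraries, 550 without WT day 0 replicate 1 and 4577 without replicate 2.

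At day 12 none of the 6 genes was called, where 1.4% of all genes were, and the genotypes again overlapped for all 6 (16.8% of all genes were wholly higher and 15.9% wholly lower in Def6-/- cells). The mean of Comp was 359 ± 40.4 normalized CPM in WT cells (SD, n = 2) and 359 ± 64.7 in Def6-/- cells, a log2 difference of -0.01 with an interval of -0.60 to 0.58. Sox9 was at 107 ± 11.6 and 103 ± 0.423 (-0.05, with an interval of -1.03 to 0.92). Acan had the lowest difference, -0.28 (-1.13 to 0.57), from 43.8 ± 7.95 in WT and 36.1 ± 8.69 in Def6-/- cells. Sox6, Hapln1 and Sox5 differed by 0.01, -0.07 and 0.09. The unadjusted limma p of the 6 genes was 0.474 or higher.

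The change over time was not shown to differ between genotypes for any of the 6 genes, with 0 calls against 1.12% of all genes. The difference of changes was -0.51 for Sox6 (-1.75 to 0.73), -0.49 for Sox5, -0.35 for Acan, 0.21 for Hapln1, 0.19 for Comp and 0.14 for Sox9. Sox6 was called, at -1.18 (limma, adjusted p = 0.0234, over a range of 0.0234 to 1), without WT day 0 replicate 2, a setting that leaves the library that stood apart as the only WT day 0 library and that called 27.0% of all genes. At an adjusted p under 0.05, 0 of the 6 genes were called in these 3 comparisons by limma, edgeR or DESeq2 with all libraries, where limma called 0.0081% of all genes at either day and 0% for the difference of changes. With all libraries, limma gave each of the 6 an unadjusted p above 0.05 there.

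Per kilobase of exon, the order of the genes changed over time. At day 0 Sox9 stood highest, at 24.5 normalized CPM per kb in WT and 21.3 in Def6-/- cells, followed by Acan at 14.2 and 15.1, and the libraries of these neighbours overlapped. Comp (7.57 and 6.77 per kb) and Hapln1 (7.20 and 5.78 per kb) came next and also overlapped. Sox6 followed at 3.75 and 4.91 per kb, and in Def6-/- cells it overlapped Hapln1. At day 12 Comp stood first at 121 per kb in both genotypes, above Sox9 at 25.9 and 24.9 per kb. Hapln1 at 7.74 and 7.35 per kb then lay above Acan at 5.86 and 4.84 per kb, without overlap in either genotype. Sox5, Matn3 and Chad were below 1.05 per kb in each library of each group.

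Spread between replicates was uneven among the genes. At day 0 the 2 WT libraries differed for Sox6 by 1.34 on the log2 scale, more than 91.4% of genes tested, and for Sox9 by 1.198, more than 87.9%. The 2 Def6-/- libraries at day 0 differed for Sox9 by 1.14, for Sox5 by 1.10 and for Acan by 0.94, more than 97.7%, 97.3% and 95.7% of genes. Replicate 1 was the lower for Sox9 in both genotypes, whereas for Acan it was the lower in WT and the higher in Def6-/- cells. At day 12 Sox9 differed by 0.22 in WT and by 0.01 in Def6-/- cells, and Sox6 by 0.36 and 0.01.

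**Figure D3:**
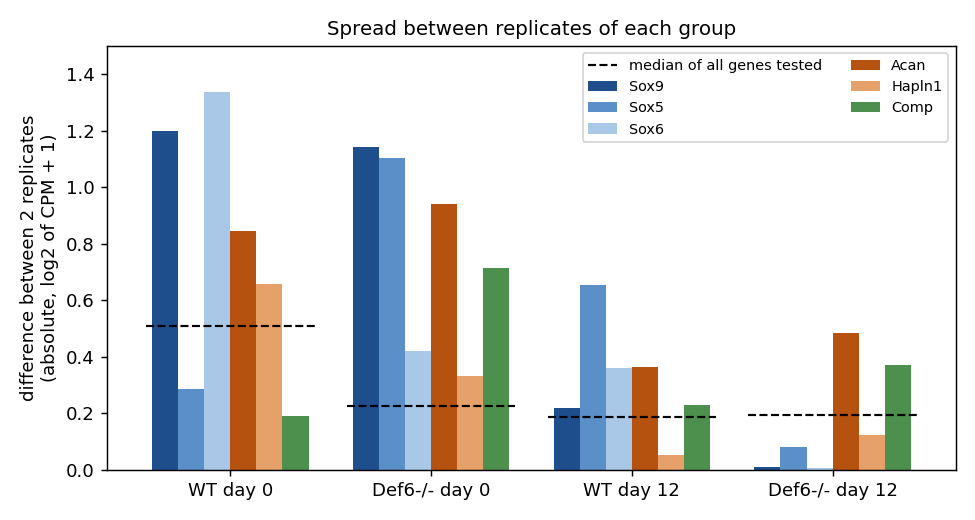
Absolute difference between the 2 replicates of each group (y axis, log2 of normalized CPM + 1, bars from 0) for the 6 tested genes, with the median of all genes tested as a dashed line. Sox9 stands above the dashed line in both day 0 groups (1.198 against 0.51 in WT, 1.14 against 0.22 in Def6-/- cells) and at 0.01 in Def6-/- cells at day 12.

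Of 8 other cartilage collagen genes, all tested, 6 were called higher and 1 lower over time in each genotype, where 12.7% and 5.63% of all genes were called higher and lower in WT cells and 12% and 4.79% in Def6-/- cells. The gene that fell was Col2a1, which encodes the main collagen of cartilage, with a log2 fold change of -1.50 in WT and -1.86 in Def6-/- cells (limma, adjusted p = 0.0267 and 0.0106). Col2a1 was at 1821 and 3525 normalized CPM in WT and 3570 and 1804 in Def6-/- cells at day 0, with its replicates in the same order as those of Acan in both genotypes. At day 12 it was at 787 and 1016 in WT and 746 and 650 in Def6-/- cells, the same order as Acan in WT cells and the opposite order in Def6-/- cells. Col9a2 rose by 3.03 and 3.28 and Col27a1 by 2.49 and 2.49, and Col10a1, the collagen of hypertrophic cartilage, rose by 2.28 and 2.37. Col11a2 rose by 1.94 and 2.53. The median log2 fold change of the list was 1.63 in WT and 1.90 in Def6-/- cells.

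Among 19 other non-collagen genes of the cartilage matrix, 15 were tested, and 12 were called higher and 2 lower in WT cells, with 11 and 2 in Def6-/- cells. The shares of all genes called higher and lower were 12.7% and 5.63% in WT and 12% and 4.79% in Def6-/- cells. Matn4, a relative of Matn3, rose by 5.11 in WT and 5.36 in Def6-/- cells on the log2 scale. Lect1, which encodes chondromodulin, rose by 3.89 and 3.99, Epyc (epiphycan, a small proteoglycan) by 4.74 and 5.12, and Mia by 4.38 and 3.91. Mia had 0 to 1 reads in each day 0 library and 42 to 68 at day 12, so the size of its change is uncertain. Epyc had 9 to 25 reads in each day 0 library. Prg4, which encodes lubricin of the joint surface, and Ctgf fell, Prg4 with log2 fold changes of -2.84 and -2.90. Prg4 had 51 to 103 reads in each day 0 library and 4 to 13 at day 12, so the size of its fall is uncertain. The genes that were not tested, Matn1, Snorc (listed as 3110079O15Rik), Scrg1 and Clec3a, had 0 to 4 reads in a library, and Snorc and Clec3a had 0 in all 8. The medians were 1.88 and 1.67.

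Among 17 family relatives of the 8 genes, 11 were tested, and 5 were called higher in WT and 6 in Def6-/- cells, with 0 lower in both (medians 1.10 and 0.92). Of all genes tested, 12.7% were called higher and 5.63% lower in WT cells, and 12% and 4.79% in Def6-/- cells. Besides Matn4, Matn2 rose by 1.67 and 1.71, Hapln4, a relative of link protein, by 1.402 and 2.54, and Chadl, a relative of chondroadherin that is also in the matrix list, by 1.88 and 2.15. Hapln4 had only 1 to 2 reads in each day 0 library, so the size of its change is uncertain. Chadl had 6 to 12 reads in each day 0 library. The relatives Sox8, Sox10, Ncan, Hapln2, Hapln3 and Matn1 had 0 to 9 reads in a library and were not tested. Of 16 other chondrocyte transcription factors and cofactors only 8 were tested, the rest having 0 to 6 reads, and 3 were called higher in WT cells against 2 higher and 1 lower in Def6-/- cells (medians 0.19 and 0.32). Mef2c, a factor of chondrocyte hypertrophy, rose by 2.47 and 2.49, and Zbtb20 by 1.22 and 1.08. Zbtb20 had 8 to 11 reads in each day 0 library and 17 to 30 at day 12. Trps1 rose by 1.16 in WT cells, and its value in Def6-/- cells was 1.07 (limma, adjusted p = 0.0696). Arid5b, a cofactor of SOX9, fell by 1.43 in Def6-/- cells, with a value of -0.46 in WT cells, and its difference of changes of -0.98 was called by the criterion for genotypes used above.

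**Figure D4:**
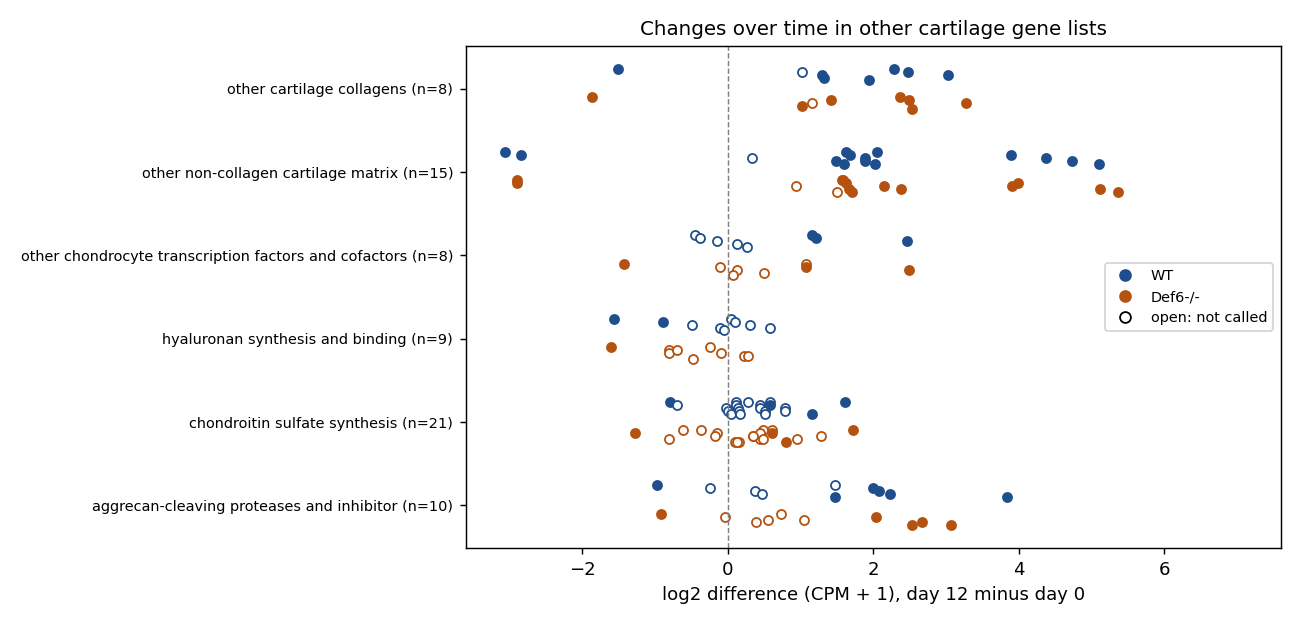
Log2 difference of normalized CPM + 1 between day 12 and day 0 (x axis) of each tested gene in 6 other cartilage lists (y axis, n tested in brackets), in WT (blue) and Def6-/- cells (orange), with open points for genes that were not called. Most called genes of the collagen and matrix lists lie to the right of 0, with Col2a1 at -1.50 and -1.86, whereas 0 genes of the hyaluronan list were called higher.

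Genes that build and cut the aggrecan complex were read against the same shares of all genes, 12.7% called higher and 5.63% lower in WT and 12% and 4.79% in Def6-/- cells. Of 12 genes of hyaluronan synthesis and binding 9 were tested, and 0 were called higher, with 2 lower in WT and 1 lower in Def6-/- cells (medians -0.06 and -0.48). Cd44, a hyaluronan receptor, fell in both genotypes (log2 fold changes -1.56 and -1.60), and Has2, a hyaluronan synthase, fell by 0.89 in WT cells, with a value of -0.80 in Def6-/- cells (limma, adjusted p = 0.0535). Of 21 genes of chondroitin sulfate synthesis, all tested, 3 were called higher and 1 lower in each genotype (medians 0.27 and 0.35), which is near those shares. Xylt2, which starts the chain, rose by 1.16 and 0.80, Chst15 by 1.62 and 1.73, and Chpf by 0.58 and 0.61. Ugdh, which makes a sugar precursor of the chain, fell by 0.79 in WT cells and had a value of -0.61 in Def6-/- cells (limma, adjusted p = 0.0536). Of 10 genes for aggrecan-cleaving proteases and an inhibitor, 5 were called higher and 1 lower in WT cells and 4 and 1 in Def6-/- cells (medians 1.48 and 0.89). Among the proteases, Htra1 rose by 1.99 and 2.04, Mmp13 by 2.23 and 2.67, Adamts9 by 3.84 and 3.07, and Adamts15 by 1.48 and 2.54. Adamts15 had 1 read in each day 0 library and 6 to 18 at day 12, so the size of its change is uncertain. The gene called lower was Timp3, which encodes an inhibitor of Mmp and Adamts proteases, at -0.97 and -0.92.

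Of 12 genes of chondrocyte hypertrophy and growth plate signalling 10 were tested, with 4 called higher and 1 lower in WT cells and 5 and 1 in Def6-/- cells (medians 1.05 and 0.91). Col10a1, called higher in both genotypes, is counted in the collagen list too, so the lists are not separate evidence. Over all genes the shares called higher and lower were 12.7% and 5.63% in WT and 12% and 4.79% in Def6-/- cells. Pth1r, the receptor of parathyroid hormone and its related protein, rose by 1.97 and 2.57, Ihh (Indian hedgehog) by 2.26 and 2.002, and Fgfr3 by 0.9995 and 0.946. Between genotypes at day 12, the calls among these lists were Col9a3, lower in Def6-/- cells (-0.63), and Hapln4, Adamts15 and Timp3, which were higher. These were 4 of the 87 distinct list genes tested (4.60%), against 1.4% of all genes. Adamts15 averaged 1 deposited CPM or more only in Def6-/- cells at day 12, the group where it was called higher. The filter thus let it into this count because it was high there, and its call is no separate support. At day 0 the single call of the 87 was Arid5b, higher in Def6-/- cells by 0.78. None of these genotype calls had an adjusted p under 0.05. At day 12 Hapln4 had 13 and 6 reads in WT and 22 and 16 in Def6-/- libraries. Adamts15 had 11 and 6 reads in WT and 15 and 18 in Def6-/- libraries.

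Markers of other cell types were read in the same libraries. Calls over time stand beside 12.7% of all genes called higher and 5.63% lower in WT cells, and 12% and 4.79% in Def6-/- cells. The 8 chondrocyte markers, Acan and Col2a1 among them, had a summed level of 1949 to 3849 normalized CPM at day 0 and 1194 to 1609 at day 12. Besides Acan, these markers are also in the collagen or matrix lists above. Col2a1 gave most of the sum at day 0, Snorc was at 0 in all 8 libraries, and Matn1 had 0 to 4 reads. Of the 6 tested, 3 were called higher and 1 lower in WT cells, and 4 and 2 in Def6-/- cells. The 6 tendon and ligament markers summed to 1557 to 1779 at day 0 and 4342 to 4784 at day 12. Fmod, which is also in the cartilage matrix list, made up most of that sum, with 1154 to 1348 at day 0 and 3636 to 3866 at day 12. Of the 5 tested, 3 were called higher and 1 lower in WT cells and 2 higher and 0 lower in Def6-/- cells. Tnmd rose by 1.80 and 1.93 and Fmod by 1.63 and 1.58, whereas Scx, the transcription factor of tendon, fell by 1.82 in WT cells and had a value of -1.48 in Def6-/- cells (limma, adjusted p = 0.0559). Of the 9 osteoblast markers 4 were called higher in WT and 5 in Def6-/- cells and 0 lower, against 12.7% and 12% of all genes called higher. Alpl, an enzyme of mineralization, rose by 3.65 and 4.45, whereas Runx2, Sp7, Col1a1 and Spp1 were not called, with Spp1 at -0.76 and -0.10.

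The macrophage markers summed to 155 to 358 normalized CPM at day 0 and 2603 to 5346 at day 12 (without Ptprc, whose deposited values are not whole reads), and 8 of 9 were called higher in each genotype. The 7 adipocyte markers summed to 36.9 to 47.0 at day 0 and 311 to 439 at day 12, with 5 of 6 tested called higher in WT and all 6 in Def6-/- cells. Over all genes tested, 12.7% were called higher over time in WT and 12% in Def6-/- cells. Between genotypes at day 12, 4 adipocyte markers (Adipoq, Plin1, Cfd and Fabp4) and the osteoblast marker Bglap were called higher in Def6-/- cells. The criterion was the unadjusted one, which called 1.4% of all genes, and none of the 4 or Bglap had an adjusted p under 0.05. Reads were few, with 2 and 1 in WT and 8 and 15 in Def6-/- libraries for Cfd, and 8 and 6 against 18 and 30 for Adipoq. Cfd and Adipoq averaged 1 deposited CPM or more only in Def6-/- cells at day 12, so they were tested only through the group where they were called higher. Adipoq, Plin1, Cfd, Fabp4 and Bglap reached that level only at day 12, so they entered the counts over time through their higher day. Lpl, which gave most of the adipocyte sum, was not called between genotypes. Schwann and glial markers summed to 7.07 to 18.9 at day 0 and 29.6 to 43.6 at day 12, and S100b, which chondrocytes also express, was the 1 tested and was called higher in both genotypes. Skeletal muscle markers summed to 1.148 to 11.3 in any library, with Myod1 at 0, and endothelial markers to 0.789 to 13.1, with Emcn at 0. The part of these cell types in the values of the cartilage genes was not tested.

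The genes whose levels followed each cartilage gene most closely were found by Pearson's r of log2(normalized CPM + 1) over the 8 libraries, as a description, since the points share their groups and days. Acan was closest to Ahrr (0.986), Usp12 (0.984) and Col2a1 (0.977), whereas its r with Sox9 was -0.26. Comp was closest to Rarres2 (0.999), Enpep (0.996) and Itgbl1 (0.996). Sox9 was closest to Foxj2 (0.988), Pml (0.961) and Cdk19 (0.960), and Sox6 to Rasal2 (0.993), Kif1b (0.990) and Utrn (0.990). Sox5 was closest to Col18a1 (0.972), Rabif (0.901) and Cyth3 (0.880), and Hapln1 to Ckap2 (0.972), Runx1t1 (0.958) and Dcun1d4 (0.947). Among the 6 tested genes the highest r was that of Sox9 with Hapln1, 0.876, and the lowest that of Acan with Comp, -0.85. Sox9 with Sox6 had an r of 0.53 and Sox9 with Sox5 of -0.61.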

How the data were processed

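RNA of 8 mouse libraries was measured, 2 in each of 4 groups taken from the labels. Per the study's methods and the submitters' processing notes, the authors used fastp, HISAT2 for alignment to mm10 and HTSeq for counting, and computed CPM with edgeR, with no versions, annotation or strand setting given in the sources used here. The deposited CPM are relative to all reads that were handled, those outside genes included, and 5 rows that name no gene were left out, so that 28.84% to 35.28% of reads remained. Values were whole reads in 99.957% of 114821 positive cases (tolerance 0.01 reads); the 49 others lie in 9 genes, none of them a cartilage gene. CPM were rescaled to reads on genes with TMM factors (edgeR 4.0.16) and tested two-sided with limma 3.58.1 (lmFit, eBayes with trend) on log2(CPM + 1), in R 4.3.3, in a fit of 4 group means over all 8 libraries, in place of the study's edgeR test because the files hold CPM. Genes were tested where any group averaged 1 deposited CPM or more. Time comparisons were called at a Benjamini-Hochberg adjusted p under 0.05, and genotype comparisons at an unadjusted p under 0.05 and more than 1.2-fold, as in the study. In simulated data for the WT time comparison, with 200 of 12348 genes changed, the fit called 87% of 4-fold and 11% of 2-fold changes. The real comparison called 2260 genes, so its adjustment was less strict and these rates are not those of the real test. Changes of about 2-fold can still go uncalled. With 2 libraries a group, p-values rest on 1 spread per gene, pooled over the 4 groups and moderated across genes. The wider spread of the WT day 0 libraries therefore enters every comparison. Where 1 library is left out, its group adds no spread of its own. edgeR's quasi-likelihood test and DESeq2 1.42.0 on recovered reads were among 19 alternatives. Positions and exon lengths are from GENCODE M21. The genes named are the 8 cartilage genes, from each list up to 4 called genes with the smallest p over time and the genes at 0, and the 3 genes closest to each tested cartilage gene; others (Prg4, Ctgf, Timp3, Col9a3, Cfd and untested list genes) were named after their values were seen. Members and lists were chosen with earlier results of these data known.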

Additional observations from a re-analysis of the deposited data

How the results depend on the processing

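With CPM of reads on genes without TMM, with edgeR and with DESeq2 on recovered reads, 2 of the cartilage genes were called over time in WT cells in place of 1, the second being Acan. Leaving out 1 library gave 1 to 3 calls over time in WT cells, 1 to 3 in Def6-/- cells, 0 to 2 between genotypes at day 0, 0 to 0 at day 12 and 0 to 1 for the difference of changes. The other alternatives kept these 5 counts within 1.5 times.

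Single log2 fold changes turned sign mainly when 1 library was left out. Over time in WT cells they ran from -0.41 to 0.79 for Sox9, -0.0633 to 0.59 for Sox5, -0.73 to 0.60 for Sox6 and -0.19 to 0.47 for Hapln1, and in Def6-/- cells from -0.24 to 0.90 for Sox9 and -0.78 to 0.33 for Sox5. Between genotypes at day 0 they ran from -0.79 to 0.41 for Sox9, -0.15 to 1.18 for Sox6, -0.40 to 0.54 for Acan, -0.55 to 0.16 for Comp and -0.61 to 0.0477 for Hapln1. At day 12 they ran from -0.16 to 0.0571 for Sox9, -0.24 to 0.41 for Sox5, -0.17 to 0.19 for Sox6 and -0.19 to 0.18 for Comp. The difference of changes ran from -0.46 to 0.74 for Sox9, -1.04 to 0.0626 for Sox5, -1.18 to 0.16 for Sox6, -0.82 to 0.12 for Acan, -0.17 to 0.54 for Comp and -0.12 to 0.54 for Hapln1. Beyond these, at day 12 CPM as deposited gave 0.0192 for Sox9 and 0.0633 for Comp, and Sox6 was at -0.0023 without TMM and at -0.0065 with DESeq2. The cause was not tested for any of these.

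With a replicate block the calls were 1 over time in WT cells, 2 in Def6-/- cells and 0 in the other comparisons, so no call changed. Same-numbered libraries deviated together with r = 0.327 between the day 0 groups and 0.00232 to 0.152 between the other pairs of groups, so the numbers were not taken as pairs.

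Counts over all genes moved more. Fitting only the groups compared gave 890 higher and 203 lower genes over time in WT cells (1565 and 695 with all libraries), 2264 and 1645 in Def6-/- cells (1485 and 591), 43 and 57 between genotypes at day 0 (122 and 162) and 293 and 261 at day 12 (100 and 73). A filter at 5 CPM gave 73 and 89 at day 0, 42 and 31 at day 12 and 35 and 21 for the difference of changes (86 and 52), and no filter gave 237 and 222 at day 12 and 182 and 144 for the difference. On recovered reads edgeR called 2313 genes over time in WT and 1983 in Def6-/- cells. DESeq2 gave 35 and 177 at day 0, 61 and 24 at day 12 and 36 and 9 for the difference. CPM as deposited gave 138 and 53 at day 0 and 119 and 51 at day 12, and CPM without TMM gave 1316 and 835 over time in Def6-/- cells. Depth limits Sox5, Matn3 and Chad most, with 0 to 40 reads in a library.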
